A study of Homo sapiens with 8 samples.

Results

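IKKβ(EE) is an always-active form of IκB kinase β, and the measurements described here ask which transcripts changed when it was the sole construct named for transiently transfected Reh cells. Reh is an established human line of B-cell precursors. The design text calls it an acute lymphoblastic leukemia line, while the sample labels give non-Hodgkin lymphoma as the malignancy. The comparison takes 4 of the 8 arrays of the series: Reh cells with transient expression of IKKβ(EE) (2 arrays) against Reh cells given a control shRNA (2 arrays), chosen by the array titles. The other 4 arrays, with 2 for CBFA2T3 shRNA together with IKKβ(EE) and 2 for CBFA2T3 shRNA alone, entered the estimate of spread and the last comparisons below. Replicates within a group are labelled biological and numbered 1 and 2. The labels do not state the vector or promoter, the time of harvest, the share of cells that took up a construct, or whether the cells given IKKβ(EE) also carried a control shRNA. If they did not, IKKβ(EE) and the loss of the control shRNA cannot be told apart in this contrast. In bulk RNA, a higher level in every cell and a larger share of expressing cells cannot be told apart either.

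In the canonical NF-κB pathway, dimers of Rel proteins are held in the cytoplasm by IκB proteins. IκB kinase β phosphorylates the IκB protein, which is then degraded, and the freed dimers enter the nucleus and bind κB sites in the DNA. Known targets include the pathway's own inhibitors, chemokines, cytokines, adhesion molecules, antigen presentation genes and survival genes of the BCL2 family. In B-lineage cells the pathway is known for its part in activation, survival and maturation.

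Values are log2 probe set intensities on Affymetrix U133 Plus 2.0 arrays, and a difference of 1 is a doubling. A mean below log2 5 was taken as close to background, and a change that starts there as uncertain in size. Of 54675 probe sets, 24481 reached log2 5 on at least 2 arrays and were tested with limma. They cover 11449 genes, each described by its brightest probe set. "Called" means an adjusted p under 0.05, and errors after ± are standard errors of the fit. A second fit held the replicate number as a block, since arrays with equal numbers deviated together, and its adjusted p is given where it changed a call. Equal numbers may mark cultures that share something, so p-values measure the spread between these arrays, which may be partly technical. With 2 arrays on either side, the smallest p of an exact permutation test is 0.333.

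The label of a B-cell precursor line was checked on marker genes. Of 13 precursor markers on the array, 12 had means above log2 5 in cells with IKKβ(EE) and 12 in control cells, and VPREB1, a surrogate light chain of the pre-B receptor, was the marker below it. Of 48 markers of 9 other cell types, 15 were tested and 0 were called in either fit. In control cells 2 T-cell, 2 dendritic, 2 plasma cell, 1 NK, 1 erythroid, 1 fibroblast and 1 endothelial marker had means above log2 5. The brightest of these was MZB1, a plasma cell marker, at 9.73 and 10.17. A call compares groups of the same line, so it cannot show which cell types were present.

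The transfected gene was checked first. The IKBKB probe set 211027_s_at stood at 10.85 and 10.39 in the arrays with IKKβ(EE), against 3.97 and 4.02 in control arrays. The difference was 6.63 ± 0.30 (limma adjusted p = 0.000312). The other IKBKB probe sets did not follow it: 209341_s_at read 8.77 and 9.18 in cells with IKKβ(EE) and 8.59 and 8.71 in control cells (adjusted p = 0.575, and 0.208 with the replicate block). Probe set 209342_s_at differed by 0.26 ± 0.19 (adjusted p = 0.676, and 0.413 with the block). The 3 probe sets of this gene thus disagree, and which part of the transcript each of them reads was not examined. CBFA2T3, the target of the shRNA in the remaining groups, read 8.91 and 8.89 in cells with IKKβ(EE), against 9.22 and 9.29 in control cells (difference -0.36 ± 0.16, adjusted p = 0.54, and 0.207 with the block).

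More transcripts were called higher than lower in cells with IKKβ(EE). Of the 24481 probe sets tested, 54 (0.221%) were called higher in cells with IKKβ(EE) than in control cells and 2 (0.00817%) lower. With the replicate block the counts were 724 higher (2.96%) and 107 lower (0.437%), and all 56 were among these 831. Per gene, 32 of 11449 (0.280%) were called higher and 2 (0.0175%) lower, against 363 (3.17%) and 58 (0.507%) with the block. Over all tested genes the balance was the reverse: 41.8% of the tested genes had a higher mean with IKKβ(EE) and 58.2% a lower one, and the median difference was -0.04. In all 34 called genes the arrays of the groups did not overlap. Over all tested genes, both arrays with IKKβ(EE) lay above both control arrays in 17.9% and below them in 26.0%. Of the 32 genes called higher, 24 had a control mean below log2 5 and 8 at or above it, so most were near background in control cells.

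The unblocked call is sensitive to single arrays. Called higher were 13 probe sets without IKKβ(EE) replicate 1, 10 without IKKβ(EE) replicate 2, 5 without control replicate 1 and 6 without control replicate 2. Of these, 13, 9, 5 and 5 were among the 56 called on all arrays. CXCL11 was the 1 gene of the 34 called in all 4 of these settings. With the replicate block kept, 29 of the 34 were called in all 4, and AKAP19, IL6, PIPOX, RASSF10 and TAP1 were not.

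**Figure D1:**
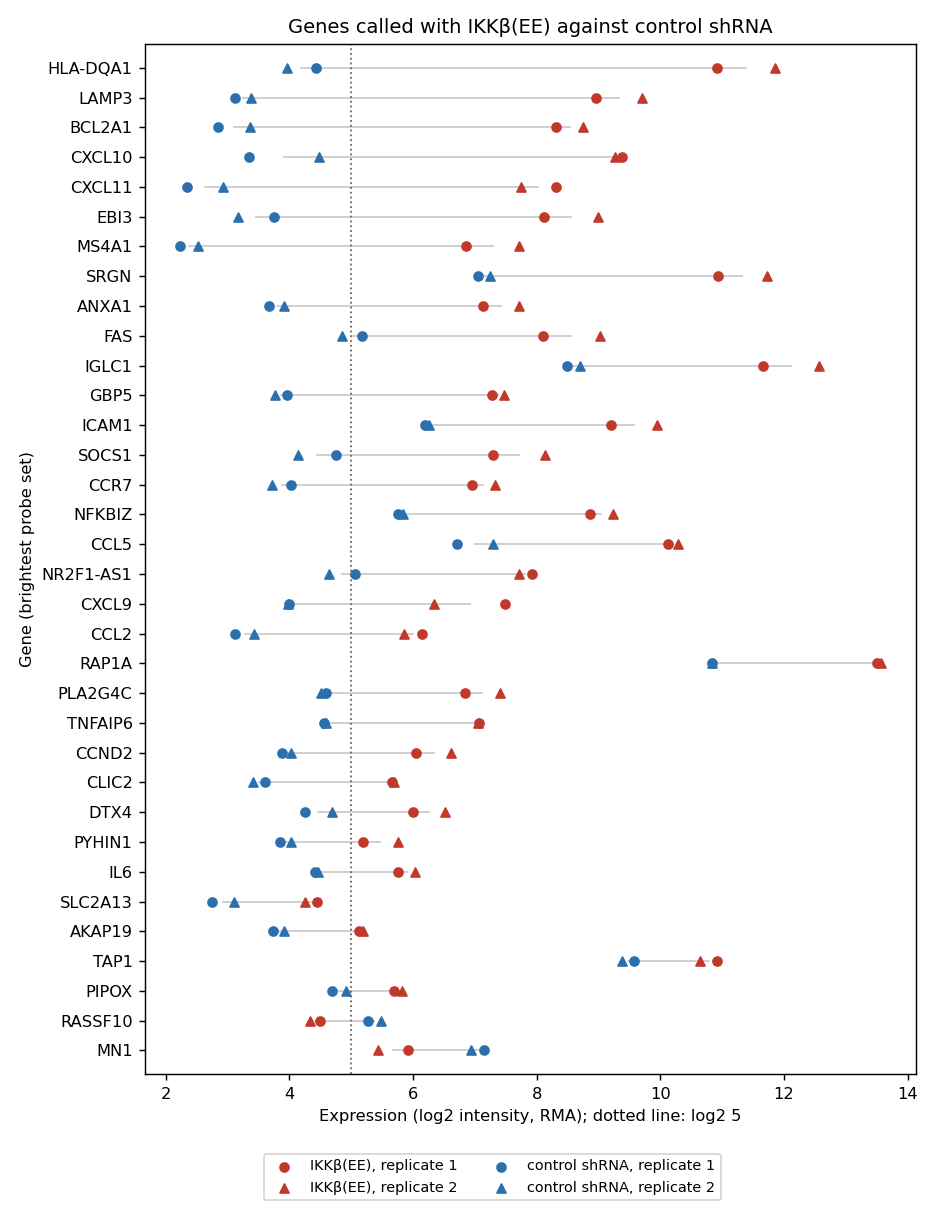
Log2 intensity on the horizontal axis of each array for the genes called without the replicate block, 1 gene per row, with red symbols for IKKβ(EE), blue ones for control shRNA, circles for replicate 1, triangles for replicate 2 and a line between the group means. The symbols of the groups do not overlap in any of the 34 genes, and 24 of the 32 genes called higher have a control mean left of log2 5.

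The κB motif and the core of the interferon-stimulated response element (ISRE), the DNA site of interferon-activated factors, were looked up in the promoters of the genes called higher. The windows run from 250 bases before to 50 bases after the annotated gene start in RefSeq (GRCh38.p14), and 22 of the 32 genes had an entry. The κB consensus, read on both strands, occurred in 7 of the 22 (31.8%), in 13.2% of the promoters of the 9361 tested genes with an entry and in 10.8% of all 27305 promoters. The ISRE core, which is GAAA, any 2 bases and GAAA on either strand, occurred in 5 of the 22 (22.7%), in 2.93% of the tested genes and in 3.65% of all promoters. Among the genes called higher with the block, 49 of 273 (17.9%) held the κB consensus and 27 (9.89%) the ISRE core. A match is a run of letters and not a measured binding site. Shown here are 5 promoters that each hold a κB match: 2 IκB genes, 2 chemokine genes and the peptide transporter TAP1. They are not typical of the 22, of which 7 hold one. HLA-DQA1, FAS, ICAM1, ANXA1 and TNFAIP6, also called higher, hold neither motif. NFKBIA, shown here, was called only with the block. Capitals mark matches to either motif, and each sequence runs 5′ to 3′ on the gene's own strand.
NFKBIZ, chr3:101827740-101828039, plus strand: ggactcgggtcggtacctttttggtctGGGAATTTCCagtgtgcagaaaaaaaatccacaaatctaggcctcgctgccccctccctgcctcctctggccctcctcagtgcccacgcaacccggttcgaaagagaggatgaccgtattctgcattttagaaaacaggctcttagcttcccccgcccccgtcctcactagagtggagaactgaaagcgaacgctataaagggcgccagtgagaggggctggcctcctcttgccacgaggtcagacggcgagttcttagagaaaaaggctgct
NFKBIA, chr14:35404700-35404999, minus strand: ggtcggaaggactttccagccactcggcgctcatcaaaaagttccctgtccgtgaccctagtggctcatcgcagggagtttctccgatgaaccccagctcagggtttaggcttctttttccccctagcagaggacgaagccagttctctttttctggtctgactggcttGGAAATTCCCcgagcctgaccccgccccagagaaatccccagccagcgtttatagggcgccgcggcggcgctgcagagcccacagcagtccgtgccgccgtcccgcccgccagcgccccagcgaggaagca
CXCL10, chr4:76023448-76023747, minus strand: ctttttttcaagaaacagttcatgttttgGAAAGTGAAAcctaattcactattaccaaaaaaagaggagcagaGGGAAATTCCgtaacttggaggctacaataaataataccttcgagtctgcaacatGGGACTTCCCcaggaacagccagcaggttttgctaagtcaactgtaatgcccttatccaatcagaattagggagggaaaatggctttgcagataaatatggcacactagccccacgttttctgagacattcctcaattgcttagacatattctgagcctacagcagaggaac
CXCL11, chr4:76036021-76036320, minus strand: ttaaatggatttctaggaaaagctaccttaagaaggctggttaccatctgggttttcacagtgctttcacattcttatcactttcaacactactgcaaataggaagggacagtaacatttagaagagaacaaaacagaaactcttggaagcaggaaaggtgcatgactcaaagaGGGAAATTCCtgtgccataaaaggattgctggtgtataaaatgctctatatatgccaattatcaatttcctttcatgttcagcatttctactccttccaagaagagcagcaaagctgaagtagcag
TAP1, chr6:32853655-32853954, minus strand: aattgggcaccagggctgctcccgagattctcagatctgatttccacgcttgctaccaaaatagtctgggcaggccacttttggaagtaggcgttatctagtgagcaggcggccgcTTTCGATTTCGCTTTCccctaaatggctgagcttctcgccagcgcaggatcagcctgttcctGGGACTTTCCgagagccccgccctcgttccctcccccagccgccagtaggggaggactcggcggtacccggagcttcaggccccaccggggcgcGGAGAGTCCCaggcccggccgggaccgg
In NFKBIZ the κB match starts 223 bases before the gene start, and in NFKBIA 81 bases before it. CXCL10 holds an ISRE core at 221 bases and κB matches at 177 and 122 bases before the start, while CXCL11 holds a κB match at 76 bases. In TAP1 overlapping ISRE cores start 134 and 128 bases and a κB match 72 bases before the start, with another κB match from base 23 after it.

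The gene lists below were chosen with earlier results of these data known, so their counts and medians are not independent evidence. Over all tested genes 0.280% were called higher and 3.17% with the block, so a short list without a called gene says little. Some called members, such as CCR7, EBI3, BCL2A1 and MS4A1, reached the floor for testing only through arrays with IKKβ(EE). The shares called in the lists are therefore partly set by the floor. Among the pathway's own inhibitors 1 of 5 tested IκB genes was called and 2 were called with the block. NFKBIZ, an atypical nuclear IκB protein, read 8.86 and 9.24 in cells with IKKβ(EE), against 5.76 and 5.84 in control cells, a 9.51-fold rise (log2 difference 3.25 ± 0.31, limma adjusted p = 0.0151). NFKBIA encodes IκBα, the classical cytoplasmic inhibitor that NF-κB itself induces. It read 11.87 and 12.25 in cells with IKKβ(EE), against 10.90 and 10.91 in control cells (1.15 ± 0.24, adjusted p = 0.158), and was called with the block (0.0187). All 5 tested IκB genes had higher means with IKKβ(EE), with a median difference of 0.93.

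Of the 5 Rel subunit genes 0 were called and 2 were called higher with the block, with a median difference of 0.78. The called subunits were RELB and NFKB2, known as the partners of the alternative pathway. RELB read 6.79 and 7.66 with IKKβ(EE), against 5.01 and 5.53 in control cells (1.96 ± 0.48, adjusted p = 0.235, and 0.00144 with the block). NFKB2 read 6.04 and 6.89, against 4.38 and 4.53 in control cells (2.02 ± 0.50, 0.241, and 0.0276 with the block). In both genes the arrays with IKKβ(EE) lay above the control arrays, with replicate 2 higher in either group. The dimmer NFKB2 probe set 209636_at differed by 0.97 ± 0.34 and was called in neither fit. NFKB1, which encodes p105 and p50, differed by 0.68 ± 0.27 (adjusted p = 0.481, and 0.181 with the block).

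Among 11 tested feedback regulators 0 were called and 4 were called higher with the block, and all 11 had higher means. TRAF1, an adaptor of TNF receptors, read 7.31 and 7.37 with IKKβ(EE), against 4.73 and 5.36 in control cells (2.30 ± 0.38, adjusted p = 0.0913, and 0.00248 with the block). Its other probe set, 235116_at, differed by 0.81 ± 0.28 and was called in neither fit. CYLD, a deubiquitinase that restrains the pathway, differed by 1.39 ± 0.26 (0.114, and 0.00114 with the block), and TNFAIP2 by 0.93 ± 0.17 (0.113, and 0.00444 with the block). TNFAIP3, which encodes the inhibitor A20, was already bright: it read 11.67 and 12.16 with IKKβ(EE), against 10.98 and 11.52 in control cells (0.67 ± 0.26, 0.479, and 0.0444 with the block). Of 12 kinases and adaptors upstream 0 were called and MAP3K8, a kinase of the MAP kinase cascade, was called with the block (1.75 ± 0.33, adjusted p = 0.133, and 0.0181 with the block). This count uses brightest probe sets, and that of IKBKB was the uncalled 209341_s_at and not the called 211027_s_at. CHUK, which encodes IκB kinase α, read 9.11 and 9.09 with IKKβ(EE), against 9.04 and 9.07 in control cells, so its arrays lay within 0.05 ± 0.11 of each other on average.

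Of the CXC chemokines that attract T cells through the receptor CXCR3, CXCL10 and CXCL11 were among the steepest rises, and CXCL9 rose less. CXCL11 read 8.31 and 7.75 with IKKβ(EE), against 2.35 and 2.93 in control cells (5.39 ± 0.26, limma adjusted p = 0.000345). CXCL10 read 9.39 and 9.27, against 3.35 and 4.48 in control cells (5.41 ± 0.54, adjusted p = 0.0164). CXCL9 read 7.48 and 6.35, against 4.0 and 3.98 in control cells (2.93 ± 0.36, 0.031). All 3 were near background in control cells and clearly above it in both arrays with IKKβ(EE), and all 3 changed more in replicate pair 1 than in pair 2. CXCL8, the neutrophil attractant interleukin 8, changed more in pair 2. It read 7.89 and 9.48 with IKKβ(EE), against 5.33 and 6.24 in control cells (2.90 ± 0.84, adjusted p = 0.315, and 0.00144 with the block). These were all 4 tested members of a list of 10, of which 3 were called and 4 were called with the block. The remaining members did not reach the floor for testing. CXCL9, CXCL10 and CXCL11 reached it only through arrays with IKKβ(EE), so the share called is partly set by the floor.

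Of 6 tested CC chemokines 2 were called and 3 were called with the block, with a median difference of 1.83. CCL5, which attracts T cells and monocytes, read 10.13 and 10.29 with IKKβ(EE), against 6.72 and 7.30 in control cells, a 9.23-fold rise (3.21 ± 0.32, adjusted p = 0.0164). CCL2, a monocyte attractant, read 6.14 and 5.85, against 3.12 and 3.43 in control cells (2.72 ± 0.24, 0.00938). CCL4, another CC chemokine, differed by 3.51 ± 0.74 (0.158, and 0.0147 with the block). On the receptor side CCR7, which guides lymphocytes into lymph nodes, read 6.95 and 7.33 with IKKβ(EE), against 4.03 and 3.72 in control cells (3.26 ± 0.24, 0.00458). It was the called member of 6 tested homing receptors and reached the floor only through arrays with IKKβ(EE). CXCR4, the bone marrow homing receptor, read 12.26 and 12.40 with IKKβ(EE), against 11.99 and 12.11 in control cells (0.28 ± 0.12, 0.496, and 0.192 with the block).

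**Figure D2:**
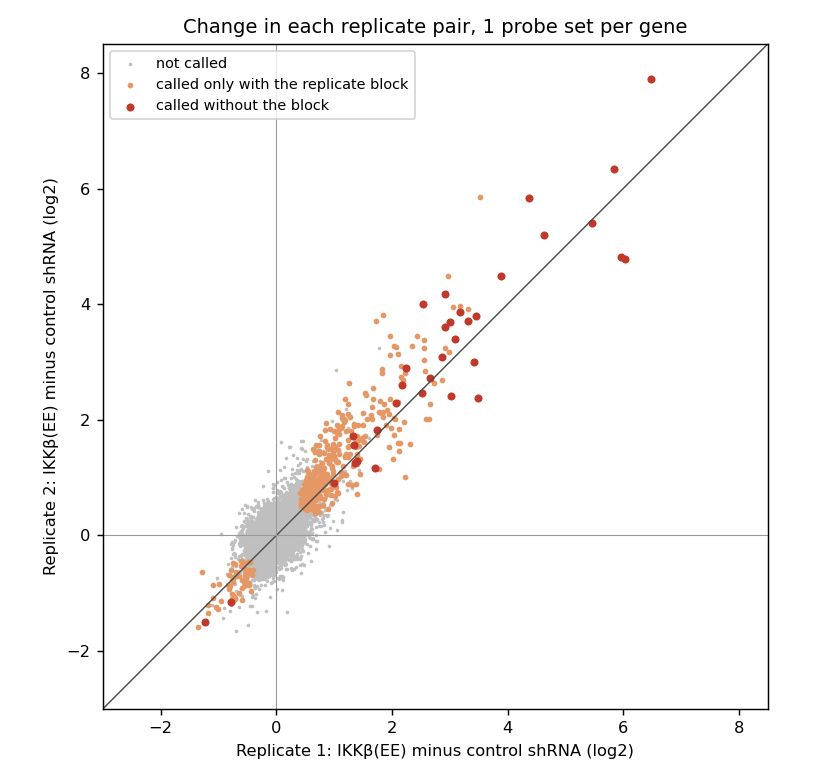
Log2 difference, IKKβ(EE) minus control shRNA, in replicate pair 1 (horizontal axis) and pair 2 (vertical axis) for the tested genes, with called genes marked. Of the 32 genes called higher, 21 lie above the diagonal, where pair 2 changed more, and 11 below it, the CXCR3 ligands among them.

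Among cytokines, EBI3, the shared subunit of interleukins 27 and 35, showed the clearest change. It read 8.13 and 9.0 with IKKβ(EE), against 3.76 and 3.17 in control cells (5.10 ± 0.54, limma adjusted p = 0.0184). IL6 read 5.77 and 6.03, against 4.42 and 4.46 in control cells (1.46 ± 0.19, 0.0441), so it stayed within reach of background. Of 11 tested cytokines these 2 were called and 6 were called with the block. IL1B, already above background in control cells, read 9.31 and 10.17, against 7.65 and 8.15 in control cells (1.84 ± 0.42, 0.192, and 0.00723 with the block). IL15 differed by 1.40 ± 0.35 (0.242, and 0.0116 with the block) and LTA, lymphotoxin α, by 1.12 ± 0.30 (0.259, and 0.0337 with the block). IFNG also passed only with the block (1.11 ± 0.19, 0.0963, and 0.0264 with the block), at 4.95 and 4.98 with IKKβ(EE) and 3.84 and 3.88 in control cells, which is at the background limit.

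Of 12 tested cytokine receptors 0 were called and 3 were called higher with the block: IL21R, IL2RG and IFNGR1. IL21R read 7.71 and 9.10 with IKKβ(EE), against 4.99 and 6.47 in control cells (2.68 ± 0.88, adjusted p = 0.393, and 0.00308 with the block). Replicate 2 was higher by more than 1 in each group, so the spread within the groups was wide while the pair differences, 2.72 and 2.64, were nearly equal. IL7R, the receptor of the precursor growth factor interleukin 7, read 12.43 and 12.32, against 12.51 and 12.35 in control cells (-0.06 ± 0.15, 0.914, and 0.793 with the block). Downstream of such receptors SOCS1, an inhibitor of JAK kinases, read 7.30 and 8.14 with IKKβ(EE), against 4.76 and 4.14 in control cells (3.27 ± 0.41, 0.0376), while its other probe set, 209999_x_at, differed by 0.68 and was not called. SOCS1 was the called member of 15 tested JAK, STAT, SOCS and PIM genes, of which 3 were called with the block, the others being JAK3 (1.20 ± 0.26) and STAT5A (1.25 ± 0.33).

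The largest rise of all tested genes was in an MHC class II gene. HLA-DQA1, the α chain of HLA-DQ, read 10.91 and 11.86 with IKKβ(EE), against 4.43 and 3.96 in control cells (7.19 ± 0.51, limma adjusted p = 0.00416). Its probe sets can share sequence with near-identical class II genes, so the gene behind the signal is uncertain. HLA-DRA, the α chain of HLA-DR, was bright in both groups and changed less. It read 12.93 and 13.15 with IKKβ(EE), against 12.32 and 12.49 in control cells (0.64 ± 0.15, 0.215, and 0.0174 with the block). HLA-DQB1 differed by 1.29 ± 0.26 (0.141, and 0.00153 with the block). HLA-DOB, part of the modulator of peptide loading in B cells, read 5.83 and 6.63, against 4.69 and 4.55 in control cells (1.61 ± 0.36, 0.182, and 0.0147 with the block). Also called with the block were the peptide loading genes HLA-DMB (0.92 ± 0.24) and HLA-DOA (0.76 ± 0.23), HLA-DRB1 (0.66 ± 0.14) and CTSS, a protease that trims the class II invariant chain (0.52 ± 0.11). Of 13 class II genes 1 was called and 8 were called with the block, and the arrays with IKKβ(EE) lay above the control arrays in 12. Over all tested genes 0.280% were called higher, 3.17% were called higher with the block, and the arrays lay above in 17.9%.

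Of 18 tested MHC class I genes 1 was called and 6 were called with the block, with a median difference of 0.44. The called gene, TAP1, encodes a subunit of the peptide transporter into the endoplasmic reticulum. It read 10.92 and 10.64 with IKKβ(EE), against 9.57 and 9.39 in control cells, a 2.47-fold rise (1.31 ± 0.16, adjusted p = 0.0289). NLRC5, the transactivator of class I genes, differed by 1.07 ± 0.19 (0.0998, and 0.0268 with the block). The heavy chain genes HLA-F (0.91 ± 0.16), HLA-E (0.64 ± 0.19), HLA-G (0.56 ± 0.12) and HLA-C (0.47 ± 0.11) were called with the block. They are close copies of each other, so their probe sets may share signal. B2M, the light chain of class I molecules, read on its brightest probe set 14.12 and 14.12, against 13.86 and 13.92 in control cells (0.23 ± 0.11, 0.54, and 0.236 with the block). These levels are near the top of the scale, where arrays can compress differences. The dimmer B2M probe set 232311_at read 8.35 and 8.22, against 7.09 and 7.25 in control cells, and passed with the block (1.12 ± 0.17, 0.0617, and 0.0119 with the block).

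Costimulatory and maturation genes were the list with the highest number of members called once the replicates were paired, which depends on list size. The shares were larger for MHC class II genes (8 of 13) and CXC chemokines (4 of 4). Medians were higher for the CXC (4.16) and CC chemokines (1.83). The CXC share and median rest on 4 tested genes. CXCL9, CXCL10 and CXCL11 among them reached the floor only through arrays with IKKβ(EE), so both values are partly set by the floor. Of 21 tested costimulation and maturation genes 1 was called and 12 were called with the block. Their median difference was 1.28, against -0.04 over all tested genes, in a list chosen with earlier results known. The called member was LAMP3, a lysosomal protein of maturing dendritic cells, at 8.96 and 9.71 with IKKβ(EE), against 3.12 and 3.38 in control cells (6.08 ± 0.55, limma adjusted p = 0.0117). CD40 read 8.77 and 9.44, against 6.96 and 7.33 in control cells (1.96 ± 0.38, 0.133, and 0.00367 with the block). CD83, a maturation marker, read 9.46 and 10.12, against 7.60 and 7.86 in control cells (2.06 ± 0.40, 0.133, and 0.0109 with the block). TNFSF9 and its receptor TNFRSF9 differed by 2.16 ± 0.32 and 2.47 ± 0.35, with adjusted p of 0.0617 and 0.0539, and passed with the block. The other TNFRSF9 probe set, 211786_at, differed by 0.75 ± 0.43 and was called in neither fit. SLAMF1, a receptor of activated lymphocytes, read 6.32 and 7.61, against 3.97 and 4.32 in control cells (2.81 ± 0.67, 0.215, and 0.00302 with the block). FSCN1, the actin bundler fascin of mature dendritic cells, differed by 2.00 ± 0.30 and ICOSLG, the ligand of ICOS, by 1.59 ± 0.28, and both passed with the block. Of the dendritic cell markers CD1C and CD209 were tested, and neither was called in either fit.

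Of 15 other published NF-κB targets 0 were called and 5 were called with the block, with a median difference of 0.46. CD69, an early activation marker, read 10.34 and 11.37 with IKKβ(EE), against 7.35 and 8.21 in control cells (3.07 ± 0.56, limma adjusted p = 0.114, and 0.000155 with the block). PLAU, the urokinase plasminogen activator, read 6.35 and 7.47, against 4.39 and 4.35 in control cells (2.54 ± 0.46, 0.109, and 0.00465 with the block). The others were PLEK (1.59 ± 0.41), the elongation factor gene ELL2 (1.45 ± 0.41) and the kinase gene RIPK2 (0.78 ± 0.21). SOD2, a mitochondrial dismutase, read 8.18 and 8.22 on its brightest probe set, against 7.92 and 7.87 in control cells (0.30 ± 0.12, 0.475, and 0.173 with the block).

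In the adhesion group SRGN, a proteoglycan core protein of secretory granules, read 10.94 and 11.72 with IKKβ(EE), against 7.05 and 7.24 in control cells, an 18.2-fold rise (4.19 ± 0.42, adjusted p = 0.0164). ICAM1, the ligand of the integrin LFA-1, read 9.20 and 9.95, against 6.20 and 6.26 in control cells, a 10.2-fold rise (3.35 ± 0.43, 0.0376). Its probe set 215485_s_at, at 1.19 ± 0.46, passed only with the block, so the probe sets of ICAM1 disagree in size. Of 12 tested members 2 were called and 5 were called with the block. With these came ITGB2 (2.71 ± 0.73), ICAM3 (1.34 ± 0.30) and SDC2 (1.51 ± 0.26). A dimmer SDC2 probe set, 212154_at, was called without the block at 1.03 ± 0.13. The median over the list was 0.15, so the rises were those of a few members.

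Of 13 tested BCL2 family genes 1 was called and 2 were called with the block. BCL2A1, an antiapoptotic member and known NF-κB target, read 8.31 and 8.76 with IKKβ(EE), against 2.85 and 3.36 in control cells (5.43 ± 0.42, limma adjusted p = 0.00458). PMAIP1, the proapoptotic BH3 protein NOXA, read 12.42 and 12.60, against 11.34 and 11.63 in control cells (1.02 ± 0.21, 0.156, and 0.00573 with the block). BCL2L1 differed by 0.22 ± 0.14 (0.638, and 0.312 with the block). BCL2A1 was near background in control cells and PMAIP1 was bright there. Of 9 death receptor genes FAS was called, at 8.10 and 9.03 with IKKβ(EE), against 5.18 and 4.86 in control cells, an 11.6-fold rise (3.54 ± 0.40, 0.0251). CFLAR, which blocks caspase activation at such receptors, differed by 1.58 ± 0.38 on its brightest probe set (0.222, and 0.0115 with the block). Its 12 probe sets differed by 0.35 to 1.58, and 5 of them passed with the block. FAS is also a p53 target: of 18 tested p53 targets it was the 1 called, and 4 were called with the block, the others being MDM2 (0.94 ± 0.24), PLK2 (1.06 ± 0.26) and TP53INP1 (1.05 ± 0.41), while CDKN1A differed by 0.77 ± 0.23 (0.327, and 0.0788 with the block).

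Interferon-induced genes changed in part. Of 36 tested effectors 1 was called and 11 were called with the block, with a median difference of 0.25. GBP5, a guanylate-binding protein of the interferon γ response, read 7.28 and 7.47 with IKKβ(EE), against 3.96 and 3.77 in control cells (3.51 ± 0.32, limma adjusted p = 0.0117). IFIT2, which binds viral RNA, read 10.75 and 10.66, against 8.61 and 9.06 in control cells (1.87 ± 0.30, 0.0805, and 0.00593 with the block). IFIH1, the RNA sensor MDA5, read 10.07 and 10.16, against 8.04 and 8.42 in control cells (1.88 ± 0.28, 0.0617, and 0.00153 with the block). RSAD2, the antiviral protein viperin, differed by 2.33 ± 0.35 (0.0626, and 0.013 with the block). The guanylate-binding proteins GBP2 (2.20 ± 0.36), GBP4 (1.90 ± 0.29) and GBP1 (1.14 ± 0.33) and the antiviral gene OASL (2.08 ± 0.36) passed with the block as well. GBP1 was bright in both groups, at 10.13 and 9.26 with IKKβ(EE) and 8.75 and 8.37 in control cells. ISG15, a ubiquitin-like protein and standard interferon marker, read 11.35 and 11.13, against 10.80 and 10.57 in control cells (0.55 ± 0.19, 0.409, and 0.157 with the block). Of 8 interferon regulatory factors 0 were called and IRF9, part of the factor that binds ISRE sites, was called with the block (1.74 ± 0.25, adjusted p = 0.0539, and 0.0141 with the block). IRF1 differed by 0.37 ± 0.12 (0.397, and 0.138 with the block) and IRF4, a regulator of activated B cells, by 0.92 ± 0.39 (0.509, and 0.134 with the block).

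Of 26 tested immediate early genes 0 were called and 8 were called higher with the block, with a median of 0.73. EGR1, a zinc finger factor, read 8.20 and 9.14 with IKKβ(EE), against 5.24 and 4.66 in control cells (3.72 ± 0.52, adjusted p = 0.052, and 0.00691 with the block). FOS and JUN, partners in AP-1, varied between replicates. JUN read 9.04 and 10.24 with IKKβ(EE), against 6.81 and 9.23 in control cells, so its highest control array lay above its lowest array with IKKβ(EE) (1.62 ± 0.83, 0.575, and 0.0362 with the block). FOS read 5.55 and 7.10, against 4.70 and 5.15 in control cells (1.40 ± 0.53, 0.467, and 0.0362 with the block). The other members called with the block were EGR3 (1.81 ± 0.71), JUNB (1.21 ± 0.25), IER5 (0.94 ± 0.27), ATF3 (0.90 ± 0.43) and KLF6 (0.82 ± 0.41). Further large rises that passed only with the block were RNF144B (4.69 ± 0.65), GJA1 (3.62 ± 0.55), the kinase gene SGK1 (3.57 ± 0.60), the actin bundler PLS3 (3.50 ± 0.49), CMAHP (3.08 ± 0.64), GOLIM4 (2.97 ± 0.80) and the noncoding RNA LINC01619 (2.94 ± 0.48).

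**Figure D3:**
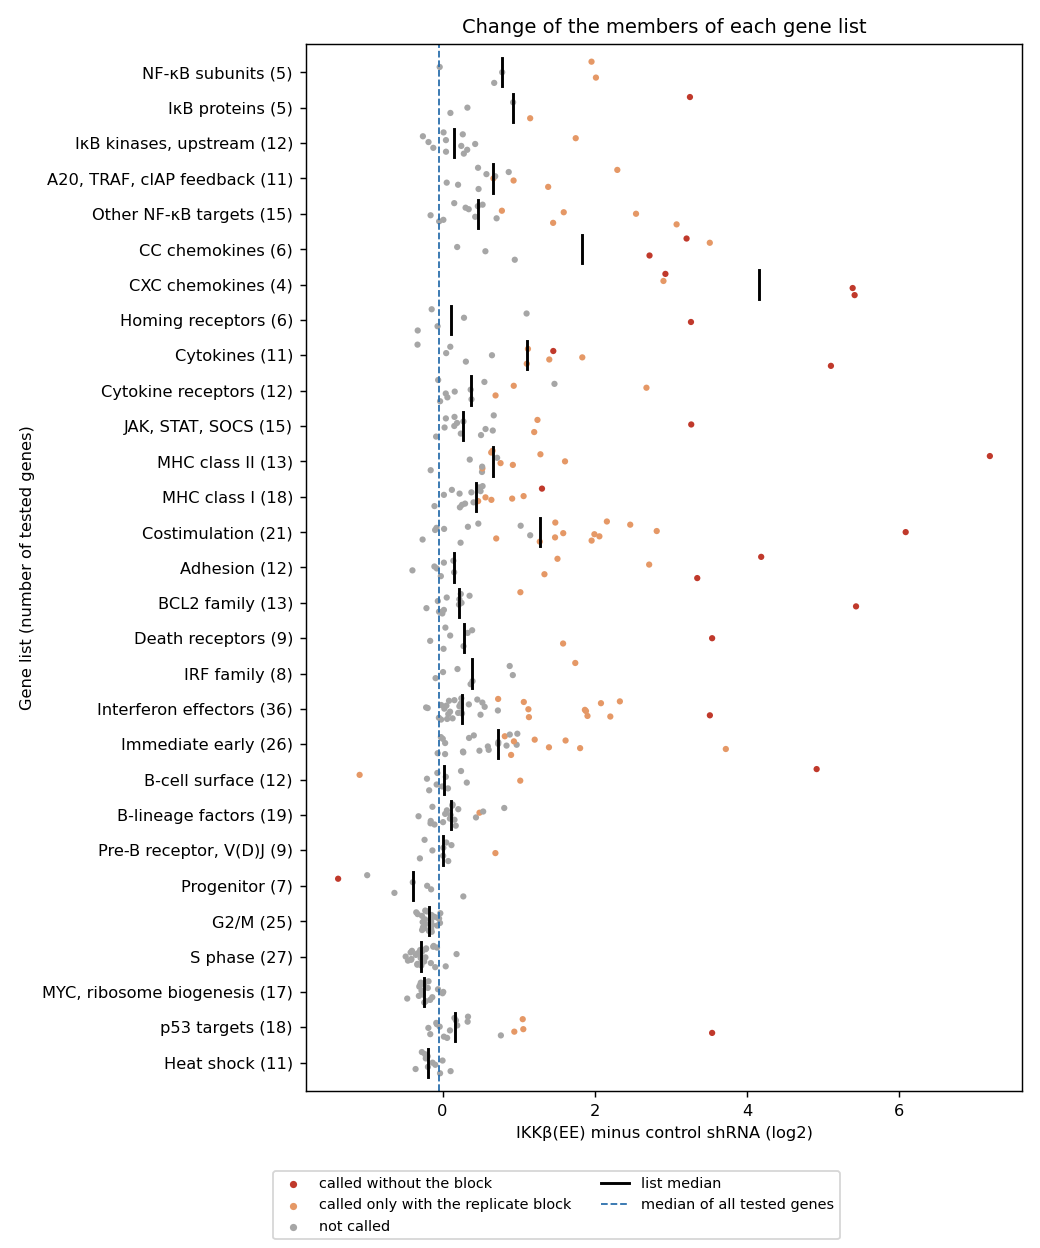
Log2 difference, IKKβ(EE) minus control shRNA, for each tested gene of the gene lists, 1 list per row, with called genes and genes called only with the replicate block marked and the list median as a bar. The costimulation median lies at 1.28 and the S phase median at -0.28, against -0.04 over all tested genes. The lists were chosen with earlier results of these data known.

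The number of B-lineage genes called was small, and so were the lists. Of 12 tested B-cell surface genes 2 were called higher with the block and 1 lower, where 3.17% and 0.507% of all tested genes were. MS4A1, which encodes CD20, was the called gene of 12 tested B-cell surface genes: its brightest probe set read 6.86 and 7.72 with IKKβ(EE), against 2.24 and 2.52 in control cells (4.91 ± 0.46, limma adjusted p = 0.0135). This probe set reached the floor for testing only through arrays with IKKβ(EE). The other MS4A1 probe sets, 210356_x_at and 217418_x_at, differed by 1.72 and 1.50. Neither was called, and 210356_x_at passed with the block. CD72, a coreceptor, passed only with the block (1.02 ± 0.20, 0.136, and 0.0113 with the block). CD9, a tetraspanin, was the gene of this group called lower with the block, at 8.20 and 10.12 with IKKβ(EE), against 9.29 and 11.20 in control cells (-1.09 ± 0.89, 0.705, and 0.0116 with the block). Its arrays overlapped between the groups, and its fall rests on the pairing alone.

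Of 19 tested B-lineage transcription factors 0 were called, with a median of 0.11. PAX5, the commitment factor, read 12.24 and 12.31 with IKKβ(EE), against 12.21 and 12.27 in control cells (0.03 ± 0.11). EBF1 read 12.36 and 12.43, against 12.29 and 12.48 in control cells (0.01 ± 0.12). POU2AF1, the coactivator OCA-B, was called with the block at 0.49 ± 0.18 (0.442, and 0.0447 with the block). Of 9 pre-B receptor and recombination genes 0 were called. IGHM, the μ heavy chain, was called with the block (0.69 ± 0.23, adjusted p = 0.393, and 0.0218 with the block), while IGLL1, the surrogate chain λ5, read 11.92 and 11.98, against 11.96 and 12.20 in control cells (-0.13 ± 0.15). The immunoglobulin light chain probe set annotated IGLC1 read 11.66 and 12.57 with IKKβ(EE), against 8.49 and 8.70 in control cells (3.52 ± 0.40, 0.0253). Light chain constant genes are near-identical copies, so the name of the gene is uncertain, and 3 further IGLC1 probe sets were not called, of which 209138_x_at passed with the block (2.95 ± 0.50).

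Falls were few and small. MN1, a transcriptional coactivator known from myeloid leukemia, read 5.91 and 5.44 with IKKβ(EE), against 7.15 and 6.95 in control cells (-1.37 ± 0.18, limma adjusted p = 0.0399). RASSF10, a Ras association domain gene, read 4.49 and 4.33, against 5.27 and 5.48 in control cells (-0.96 ± 0.12, 0.0376), at the background limit. With the block, 58 genes were called lower, with a median of -0.71, and 8 of them fell by 1 or more on the log2 scale. MN1 and CD9 were among these 8. Of the genes called only with the block and without overlap between arrays, the receptor gene LGR6 and the stem cell growth factor gene CLEC11A fell most. LGR6 read 5.74 and 5.65 with IKKβ(EE), against 7.10 and 7.23 in control cells (-1.47 ± 0.28, 0.131, and 0.0187 with the block). CLEC11A read 7.37 and 7.26, against 8.55 and 8.61 in control cells (-1.27 ± 0.27, 0.158, and 0.031 with the block). They were followed by INSC (-1.20), SHANK3 (-1.15), the BMP antagonist NOG (-1.14) and the long noncoding RNA PCAT18 (-1.05). Next came LRRC17, MEX3B, PREX1, PROS1, ALKAL2, ISYNA1, TSPOAP1, PCDH12, SH3RF3, ACTN1, SIGLEC15, IGFBP2, KIF26A and RASSF5, between -0.98 and -0.77. Of 7 progenitor genes 6 had lower means, where 58.2% of all tested genes did, with a median of -0.39. MN1 was the called member of this list. PROM1, the stem cell antigen CD133, differed by -0.99 ± 0.26 (0.263, and 0.0998 with the block).

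Cell division genes mostly had lower means, and 0 of them were called in either fit. All 25 G2/M genes and 25 of 27 S phase genes had lower means with IKKβ(EE), where 58.2% of all tested genes did, with medians of -0.18 and -0.28. The median difference of the G2/M list was -0.01 in replicate pair 1 and -0.34 in pair 2, so most of it was in pair 2. MCM2, a subunit of the replicative helicase, read 11.13 and 10.89 with IKKβ(EE), against 11.52 and 11.32 in control cells (-0.41 ± 0.25, adjusted p = 0.625, and 0.217 with the block). CDK1 and CCNB1, the mitotic kinase and its cyclin, differed by -0.03 ± 0.15 and -0.07 ± 0.18, and PCNA, the sliding clamp of replication, by 0.18 ± 0.15. MYC read 11.26 and 10.81, against 11.61 and 11.38 in control cells (-0.46 ± 0.18, 0.485, and 0.0981 with the block). Of 17 MYC and ribosome biogenesis genes and 11 heat shock genes 0 were called, with medians of -0.24 and -0.19.

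Further genes called higher have no place in the lists above. ANXA1, a phospholipid-binding protein with anti-inflammatory action, read 7.14 and 7.71 with IKKβ(EE), against 3.68 and 3.92 in control cells (3.63 ± 0.41, limma adjusted p = 0.0251). The long noncoding RNA NR2F1-AS1 read 7.92 and 7.72, against 5.06 and 4.64 in control cells (2.97 ± 0.22, 0.00458). PLA2G4C, a phospholipase, differed by 2.57 ± 0.29, TNFAIP6, a hyaluronan-binding protein, by 2.49 ± 0.29 (and by 4.64 ± 0.21 on its dimmer probe set 206026_s_at, also called), CCND2, cyclin D2, by 2.38 ± 0.31 (its probe set 200951_s_at, at 0.99, was not called) and the channel protein gene CLIC2 by 2.17 ± 0.22. Smaller called rises were those of DTX4 (1.78), PYHIN1 (1.53), SLC2A13 (1.44), AKAP19 (1.34) and PIPOX (0.95). RAP1A was called on its brightest probe set, at 13.50 and 13.57 with IKKβ(EE) and 10.84 and 10.84 in control cells (2.70 ± 0.32, 0.0278), and on 1555339_at (3.10 ± 0.32), but 202362_at (0.28 ± 0.16) and 228548_at (-0.21 ± 0.15) were not called, so a change of the gene as a whole is uncertain.

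Probe sets of some genes disagreed. Of 75 named genes with more than 1 tested probe set, 9 had probe sets on both sides of the call and 30 on both sides of the call with the block, 32 in all. Beside those described above, these were ACTN1, ATF3, CLEC11A, CTSS, CYLD, ELL2, FAS, GBP1, HLA-C, HLA-DOA, ICOSLG, IGHM, ISYNA1, JUN, KLF6, MDM2, OASL, RASSF5 and RIPK2. Their values given here are those of the brightest probe set. PLEK also differed in size, at 1.59 ± 0.41 on its brightest probe set and 3.10 ± 0.67 on 203471_s_at.

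Whether the change depended on CBFA2T3 was tested as the effect of IKKβ(EE) without the CBFA2T3 shRNA minus its effect with it. Of 24481 probe sets 0 were called larger without the shRNA and 3 (0.0123%) smaller, and the block gave the same counts, while 531 had an unadjusted p under 0.05. None of the 34 called genes was among the 3. A missed threshold does not show equal effects: MS4A1 read 8.97 and 10.45 with both constructs, 6.86 and 7.72 with IKKβ(EE) alone, 2.54 and 2.28 with CBFA2T3 shRNA alone and 2.24 and 2.52 in control cells, and its difference of effects was -2.39 ± 0.65 (limma adjusted p = 1.00, and 0.426 with the block).

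Against CBFA2T3 shRNA alone, 443 probe sets (1.81%) were called higher in cells with IKKβ(EE) alone and 202 (0.825%) lower, and with the block 2090 (8.54%) and 1768 (7.22%). This comparison shares the IKKβ(EE) arrays with the one above. Of the 32 genes called higher against control, 29 were also called higher here, and ANXA1, PYHIN1 and SLC2A13 were not. ANXA1 read 5.83 and 7.04 with CBFA2T3 shRNA alone, above the control arrays. The 2 genes called lower against control were not called lower here, and MN1 read 5.29 and 5.26 with CBFA2T3 shRNA alone, below the control arrays. The largest differences were those of HLA-DQA1 (6.05 ± 0.51), EBI3 (5.17 ± 0.54), CXCL11 (5.09 ± 0.26), CXCL10 (4.89 ± 0.54) and MS4A1 (4.88 ± 0.46). At the other end stood TOX, a nuclear factor of lymphocyte development, at 3.02 and 2.74 with IKKβ(EE) and 5.67 and 6.91 with CBFA2T3 shRNA (-3.41 ± 0.35, limma adjusted p = 0.011). It was followed by PALD1 (-3.01 ± 0.27), AGR2 (-2.97 ± 0.35), AK5 (-2.46 ± 0.35) and NOG (-2.25 ± 0.27). TOX read 2.80 and 2.79 in control cells, and cells with IKKβ(EE) differed from these by 0.08 ± 0.35.

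**Figure D4:**
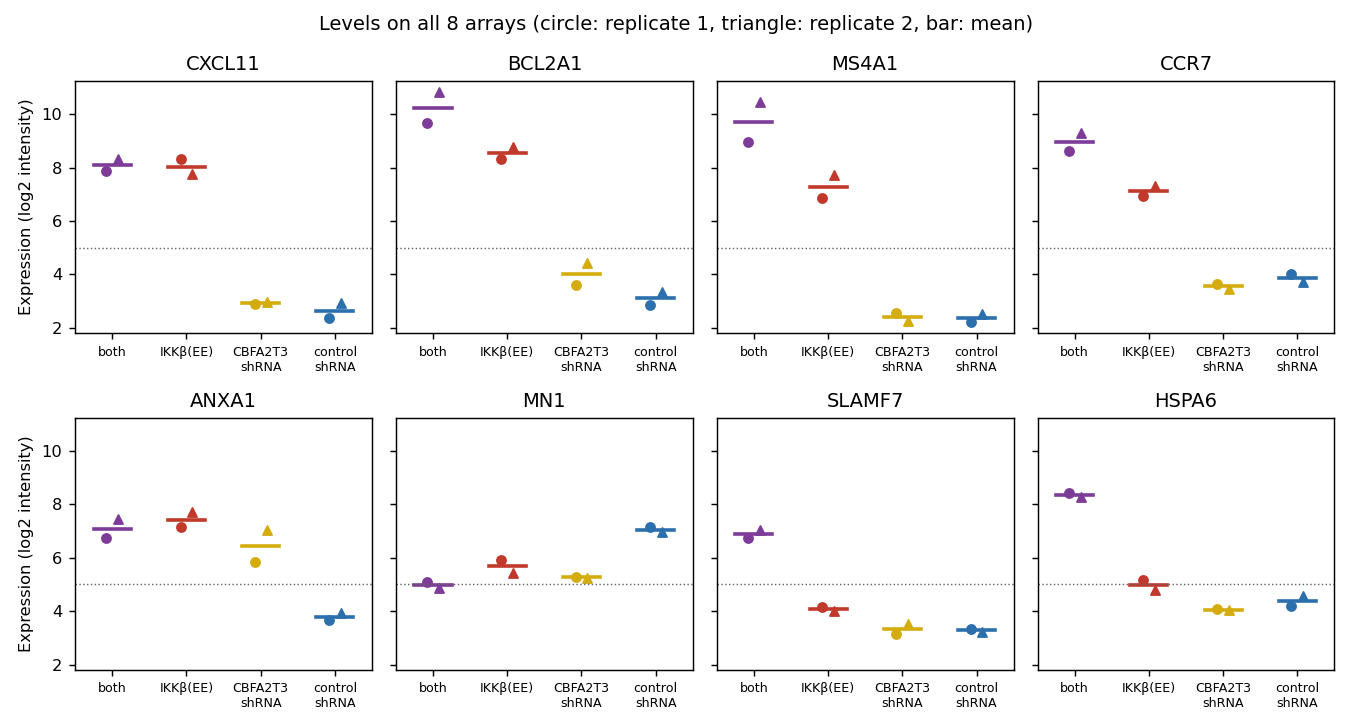
Log2 intensity (vertical axis) of each array for 8 genes, 1 panel each, with the groups both constructs, IKKβ(EE) alone, CBFA2T3 shRNA alone and control shRNA from left to right. CXCL11, BCL2A1, MS4A1 and CCR7 are high in both groups with IKKβ(EE) and low in both without it, while HSPA6 and SLAMF7 are high with both constructs only.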

How the data were processed

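Total RNA of 8 Reh cultures was hybridized to Affymetrix U133 Plus 2.0 arrays. The authors deposited log2 probe set intensities made with RMA (version not given in the sources used here), per the submitters' processing notes; RMA corrects background, sets all arrays to a common distribution and summarises probes, so a shift of most transcripts would be removed, and dim genes have understated folds. No scan dates and no detection calls were in the table used.

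The 62 control probe sets and the 30132 below log2 5 on all or all but 1 array were left out. GEO's platform annotation named a single gene for 41097 probe sets, of which 41043 matched RefSeq; the 1801 with several symbols and the 11777 without any are not named. limma 3.58.1 in R 4.3.3 fitted 1 mean per group over all 8 arrays (4 residual and 3.54 prior degrees of freedom), with two-sided tests and Benjamini-Hochberg adjustment over 24481 probe sets. Standard errors of a difference had a median of 0.154; the small number of arrays sets this precision. The number of the replicate was taken to pair arrays: differences between replicates 2 and 1 correlated in all 6 pairs of groups (0.34 to 0.58). This pairing comes from the values, since the labels only number biological replicates.

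Named were every called gene, the 20 largest falls and 10 largest rises called only with the block, the first 2 genes and up to 8 called members of each of 29 lists, IKBKB and CBFA2T3, and up to 5 genes at either end of the further contrasts. Members and lists were chosen with earlier results of these data known. The fits were tested on simulated data with independent noise and no shared replicate effect. That test therefore cannot vouch for the block fit on these arrays. Alternatives were array weights, a floor at log2 6 or none, moderation with trend and robust options, equal medians, cyclic loess, 1 probe set per gene, the compared groups alone, the replicate block and each array left out. Background correction could not be redone from RMA values. Promoters are from RefSeq's table.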

Additional observations from a re-analysis of the deposited data

Results flagged for a closer look

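For 3 probe sets the effect of IKKβ(EE) without the CBFA2T3 shRNA differed from its effect with the shRNA by the interaction test. HSPA6, an inducible HSP70 gene, read 8.42 and 8.27 with both constructs, 5.17 and 4.81 with IKKβ(EE) alone, 4.07 and 4.03 with CBFA2T3 shRNA alone and 4.19 and 4.56 in control cells. Its effect of IKKβ(EE) was smaller without the shRNA by -3.68 ± 0.25 (limma adjusted p = 0.018, and 0.00868 with the replicate block). SLAMF7, a receptor of the SLAM family, read 6.74 and 7.02 with both constructs, 4.16 and 4.01 with IKKβ(EE) alone, 3.15 and 3.51 with CBFA2T3 shRNA alone and 3.35 and 3.23 in control cells. The difference of effects was -2.76 ± 0.23 (adjusted p = 0.0448, and 0.021 with the block). A probe set annotated to several genes, 200799_at, gave -3.67 ± 0.33 (adjusted p = 0.0448, and 0.00147 with the block), at 7.27 and 7.80 with both constructs and 3.52 and 3.86 with IKKβ(EE) alone. In control cells all 3 were near background. None of the 3 would have reached the floor for testing without the arrays with both constructs, the group where they are high. Their place among the tested probe sets is thus not independent of this result. With 1 control array or 1 array of another group left out, 0 to 24 probe sets passed this test.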

How the results depend on the processing

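Against control shRNA, 54 probe sets were called higher and 2 lower. The replicate block gave 724 and 107, no floor 87 and 2, a floor at log2 6 46 and 1, trend and robust moderation 94 and 2, the compared groups alone 120 and 4, and these with the block 893 and 165. Without 1 array the counts ran from 5 to 198 higher and 0 to 16 lower, and with the block and without 1 array from 152 to 395 and 2 to 40. The count of 3 for the difference of effects with and without CBFA2T3 shRNA was 6 with no floor and 1 with trend and robust moderation, and ran from 0 to 24 without 1 array and 0 to 57 with the block. Against CBFA2T3 shRNA directly, 645 became 3858 with the block, 1188 with array weights, 357 with the compared groups alone and 3306 with these and the block, and ran from 16 to 943 without 1 array and 169 to 2244 with the block. Cyclic loess, equal medians and 1 probe set per gene kept all counts within 1.5 times.

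Of 35 named called probe sets, 0 turned in direction. With the block 35 stayed called, and with the compared groups alone 30 did. The sign turned in 15 values of 6 uncalled genes without 1 array. The range was -0.0875 to 0.101 for EBF1 (with the block -0.0944 to 0.108), -0.227 to 0.0376 for HSP90AA1, -0.141 to 0.027 for IL7R (-0.122 to 0.00806), -0.114 to 0.0484 for CDK1 (-0.219 to 0.153), -0.22 to 0.0777 for CCNB1 (-0.197 to 0.0542) and -0.277 to 0.00903 for NCL. Signal near background limits the size of most called rises.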
